A study of Mus musculus with 6 samples.

Results

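The genes described here are 44 mouse genes of the machinery that sorts cargo into vesicles inside endosomes and releases them from the cell. They were listed by name, and each symbol was matched to an Ensembl row of the deposited table. All 44 had a row among 56748, and 42 passed the filter on low values, among 16162 genes tested. The genes were taken in groups, namely ESCRT-0, ESCRT-I, ESCRT-II and ESCRT-III, the VPS4 ATPases with their cofactor, ALIX with syntenin, the ceramide enzymes, the Rab group, the flotillins, and a group of Arf, Ral and cortical actin genes.

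Extracellular vesicles of endosomal origin form when the membrane of a late endosome buds inward, away from the cytosol, and they leave the cell when that endosome fuses with the plasma membrane. ESCRT-0 gathers ubiquitinated cargo, ESCRT-I and ESCRT-II deform the membrane, ESCRT-III filaments close the neck of the bud, and VPS4 takes the filaments apart. Ceramide made by neutral sphingomyelinase, and the syntenin and ALIX pair, give further routes into the vesicle, while Rab GTPases carry the filled endosome to the cell edge or to the lysosome. The same ESCRT proteins serve other membrane cuts, such as the last step of cell division and the repair of the nuclear envelope, and in people some CHMP2B mutations cause a frontotemporal dementia.

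RNA was sequenced from brains of mice that had received MCF10DCIS cells, a human breast line that forms lesions like ductal carcinoma in situ, placed in the mammary ducts per the series title. The implanted cells made CD63, a tetraspanin of vesicles, joined to the luciferase NanoLuc. Brains collected at day 28 were set against brains collected at day 3, with 3 libraries at each time and the same implant in all 6. No brain without an implant was used here, so a difference between the days can hold effects of age, handling and implant alike. No source used here states the strain, age or sex of the mice. Nor do the labels say whether each library is a separate animal, and the p-values below therefore describe spread between libraries, some of which may be technical. The rows of the table are mouse genes. Whether any reads came from the implanted human cells was not tested, and vesicles themselves were not measured in these files.

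Depth ran from 11958137 to 16059196 reads per library. Neuron markers were present in every library, with summed normalized counts of 122693 to 129633 at day 28 and 121083 to 131100 at day 3. Libraries of the same day still differed in markers of brain regions. The sum over 15 cerebellar markers was 5764, 6745 and 9769 in the day 28 libraries, against 34688, 33044 and 6241 in the day 3 libraries. Thus day 3 replicates 1 and 2 stood apart from the other 4 libraries. The sum over 10 striatal markers was 33848, 27397 and 28598 in the day 28 libraries, against 15536, 16688 and 22302 in the day 3 libraries. The sum over 15 midbrain and hindbrain markers was 500, 227 and 259 in the day 28 libraries, against 2776, 1975 and 814 in the day 3 libraries, with En1 and Hoxa5 at 0 in every day 28 library. Of the 13 tested, all 13 had a negative difference. Of these, 9 were apart between the days, against 9.21% of all tested genes that were apart and lower at day 28. In limma 4 had an adjusted p under 0.05, against 0.192% of all tested genes. The marker lists were chosen with earlier results of these data known. The interferon response marker sum was 2628 in day 3 replicate 1, against 195 to 409 in the other libraries. Day 3 replicate 2 also held a liver marker sum of 124234, against 11343 to 15283 in the other libraries. The liver list shares Trf with the myelin list, so its sum is not of liver transcripts alone. Alb, another of its markers, had 67650 normalized counts in day 3 replicate 2, against 21.1 to 1139 in the other libraries. Values below are the authors' normalized counts, and differences are day 28 minus day 3 on the log2(normalized count + 1) scale from limma. In bulk tissue, fewer cells of a type and less RNA per cell cannot be told apart.

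No member of the machinery passed the test. With limma, 0 of 42 members had an adjusted p under 0.05, against 0.192% of all tested genes (31 of 16162). At an unadjusted p under 0.05 there were 2 members, Vps37b of ESCRT-I and Smpd3, the main neutral sphingomyelinase of brain, both higher at day 28. The share of all tested genes at that unadjusted p was 13.4%, with 6.98% higher and 6.39% lower. With voom on the recovered reads 0 members and 0 of all tested genes passed, and the same 2 members had an unadjusted p under 0.05, against 13.1% of all tested genes.

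The day 28 and day 3 libraries did not overlap for 3 of 42 members, against 18.9% of all tested genes. Vps37b was higher in all 3 day 28 libraries, against 9.71% of all tested genes that were apart in that direction. Chmp5 and Rab31 were lower in all 3 day 28 libraries, against 9.21%. These counts moved with single libraries. Without day 3 replicate 3, Vps37b (adjusted p = 0.0339) and Smpd3 (adjusted p = 0.0145) passed in limma, while 623 of all tested genes then passed, which is 3.85% of them. Leaving out day 3 replicate 1 gave 5 members at an unadjusted p under 0.05, against 18.4% of all tested genes. Leaving out day 3 replicate 2 gave 1, against 9.48%, and leaving out day 28 replicate 1 gave 1, against 8.17%. Groups that did not overlap numbered 5 to 9 members with any 1 library left out, against 25.3% to 36.9% of all tested genes.

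The differences were small beside those of other genes. The median size of the difference, regardless of sign, was 0.0765 on the log2 scale for the 42 members. It was 0.191 for all tested genes and 0.150 for the 11116 genes whose normalized count averaged 100 or more, a level that 41 of the 42 members reached. In 37 of 42 members the size of the difference was under 0.25. The 95% interval lay within a 2-fold change either way for 41 of 42 members, against 68.4% of all tested genes and 91.0% of genes with a mean of at least 100. It lay within a 1.5-fold change for 36 members, or 85.7%, against 44.7% and 64.5%. The exception at 2-fold was Sytl4, which had 98 reads over all 6 libraries. For the other 41 members the interval held no difference of 2-fold or more in either direction.

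**Figure D1:**
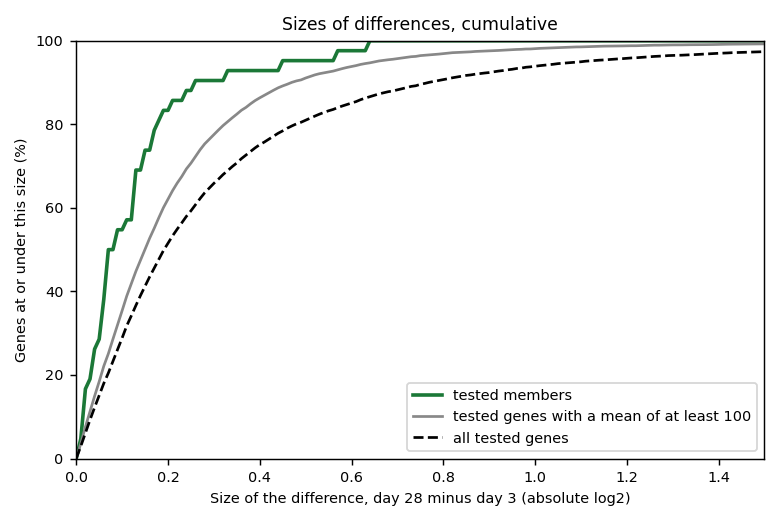
Cumulative share of genes (percent, vertical axis) whose day 28 minus day 3 difference is at or under a given size (absolute log2, horizontal axis), for the 42 tested members, the 11116 tested genes with a mean of at least 100 and all 16162 tested genes. The curve of the members lies above the others, with a median size of 0.0765 against 0.150 and 0.191.

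Of the 42 members 31 had a negative difference and 11 a positive one, against 8308 negative and 7854 positive among all tested genes. Many of these members changed sign under other settings, as given in the last section. The median over members was -0.05, and that of all tested genes -0.01. It stayed between -0.08 and -0.02 with another pseudocount, filter, scaling or variance model, with the cerebellar markers as a covariate, or with any library left out.

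**Figure D2:**
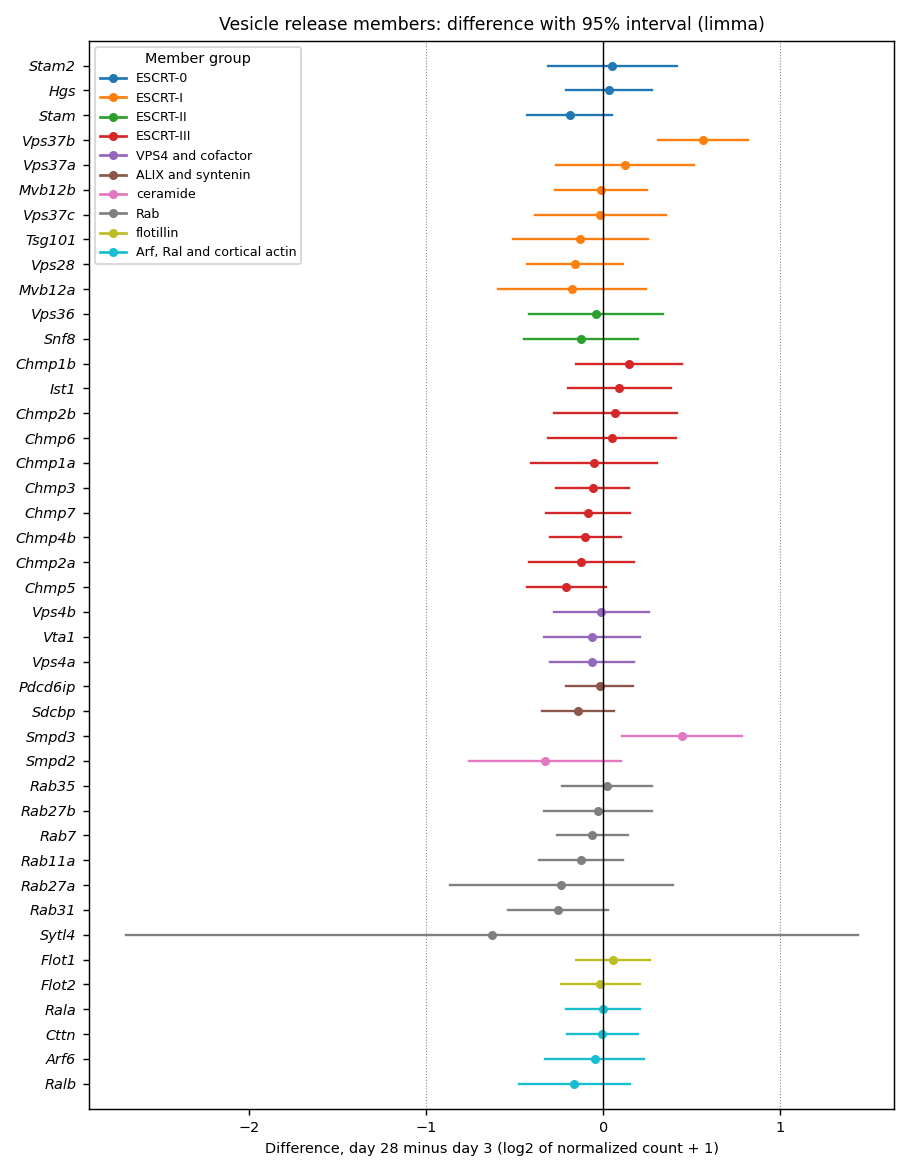
Day 28 minus day 3 difference (log2 of normalized count + 1, horizontal axis) of each of the 42 tested members, as a point with its 95% interval from limma, coloured by group. Only the intervals of Vps37b and Smpd3 lie wholly on one side of 0, and dotted lines mark a 2-fold change.

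ESCRT-0 is a complex of HRS with a STAM protein that binds ubiquitin on cargo. None of its 3 genes passed, and their median difference was 0.03. Stam had normalized counts of 717, 819.7 and 713 in the day 28 libraries, against 839, 804 and 919 in the day 3 libraries. The ranges overlapped, since day 28 replicate 2 lay above day 3 replicate 2 (limma log2 difference -0.19, SE 0.11, 95% interval -0.43 to 0.05, adjusted p = 0.481). Stam2, the other STAM subunit, had 410.3, 353 and 400.0 in the day 28 libraries, against 394, 301 and 438 in the day 3 libraries (limma log2 difference 0.05, SE 0.16, 95% interval -0.31 to 0.41, adjusted p = 0.923). Its lowest value was in day 3 replicate 2 and its highest in day 3 replicate 3, so that both ends of its range were day 3 libraries. Hgs, which encodes HRS, had mean normalized counts of 980.3 ± 42.0 at day 28 and 961 ± 104 at day 3 (SD, n = 3 each, here and for each mean below; log2 difference 0.03, 95% interval -0.21 to 0.27). Per kb of exon, Stam stood above Stam2 in all 6 libraries, by 1.5-fold in the means (exact two-sided sign-flip test, p = 0.0312, adjusted p = 0.0430 over 11 pairs). That p is the smallest that 6 libraries allow. It reflects how steadily the ratio repeats over libraries of both days, and not whether the length used is right.

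ESCRT-I joins TSG101, which recognises ubiquitin and viral and cellular budding motifs, to VPS28, to a VPS37 subunit and to an MVB12 subunit. The VPS37 and MVB12 places can be filled by different gene products so that several forms of the complex exist. None of the 7 genes passed, with a median difference of -0.02, or 0.01 with upper-quartile scaling. Vps37b had 531, 523 and 509 in the day 28 libraries, against 334, 342 and 379.7 in the day 3 libraries. All 3 day 28 libraries stood above all 3 day 3 libraries, and the spread within each day was narrow. The difference was 0.57 on the log2 scale (SE 0.11, 95% interval 0.31 to 0.82), and in limma its p was 0.000737 and its adjusted p 0.0910.

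The Vps37b groups stayed apart in every setting tried, and its difference ran from 0.46 to 0.62. Its adjusted p ran from 0.0339, without day 3 replicate 3, to 0.468, with a cerebellar covariate. The covariate was the mean log2(normalized count + 1) over the cerebellar markers in each library, not their sum. Adding that covariate gave a difference of 0.48. Leaving out the 2 day 3 libraries rich in cerebellar transcripts gave 0.46. At an adjusted p under 0.10 Vps37b was the 1 member to pass, against 0.940% of all tested genes. In the GENCODE M21 annotation, 32.9% of the exon bases of Vps37b lie across from exons of Hip1r on the opposite strand. The libraries were stranded per the labels' protocols, but whether the counting used strand is not given in the sources used here. Hip1r averaged 1400.0 ± 95.1 normalized counts at day 28 and 1351 ± 60.9 at day 3 (SD, n = 3 each).

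The days overlapped for the other VPS37 genes. Vps37a had 1200.0, 947 and 1226 in the day 28 libraries, against 1301, 827 and 1006 in the day 3 libraries (limma log2 difference 0.12, SE 0.17, 95% interval -0.27 to 0.51, adjusted p = 0.807). Day 3 replicates 1 and 2 were its highest and lowest libraries. Vps37c averaged 307 ± 31.6 at day 28 and 313 ± 51.0 at day 3 (log2 difference -0.02, 95% interval -0.38 to 0.35). Of the summed level per kb of Vps37a, Vps37b, Vps37c and Vps37d, Vps37b made up 29.1 ± 0.567% at day 28 and 22.7 ± 1.19% at day 3 (SD, n = 3 each). Its share ran from 28.6% to 29.7% at day 28 and from 21.5% to 23.9% at day 3, without overlap. The shares of Vps37a, Vps37c and Vps37d overlapped between the days. The Vps37b share is built from the Vps37b counts that already lay apart, so it is a description and adds no separate result. In an exact permutation test its p was 0.1, the smallest that test allows, so it could not fall under 0.05. The p was 0.8 for the Vps37a share, 0.3 for Vps37c and 0.6 for Vps37d.

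The remaining ESCRT-I genes overlapped between the days. Vps28, whose product links ESCRT-I to ESCRT-II, had 751, 859.9 and 691 in the day 28 libraries, against 794, 944 and 831 in the day 3 libraries (limma log2 difference -0.16, SE 0.12, 95% interval -0.43 to 0.11, adjusted p = 0.600). Only day 28 replicate 2 reached into the day 3 range. Tsg101 averaged 839.6 ± 103 at day 28 and 928 ± 194 at day 3 (log2 difference -0.13, 95% interval -0.51 to 0.25). Of the 50-base words of Tsg101, 18.3% also occur in other genes, most often in the pseudogene Tsg101-ps. Reads could therefore have been split between these genes. Mvb12a averaged 171 ± 7.72 at day 28 and 196 ± 38.6 at day 3 (log2 difference -0.18, 95% interval -0.60 to 0.24), and Mvb12b averaged 1822 ± 201 at day 28 and 1838 ± 179 at day 3 (log2 difference -0.01, 95% interval -0.27 to 0.24). Per kb, Mvb12b exceeded Mvb12a in all 6 libraries, by 3.51-fold in the means (exact sign-flip test, p = 0.0312, the smallest possible, adjusted p = 0.0430). With the longest coding transcript as the length that ratio was 2.12. Vps37a and Vps37b were too close to be ordered, with Vps37a higher in 4 of 6 libraries (1.09-fold, exact p = 0.5). Vps37b stood above Vps37c in 5 of 6 libraries (1.37-fold, exact p = 0.0625, adjusted p = 0.0688).

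**Figure D3:**
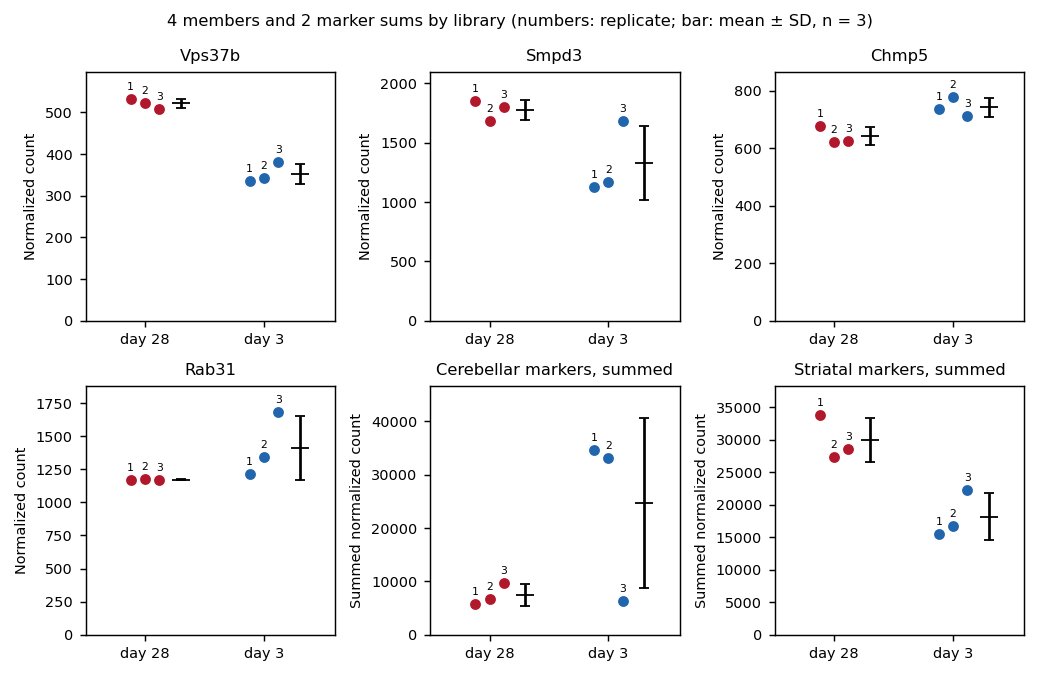
Normalized counts (vertical axes, from 0) of Vps37b, Smpd3, Chmp5 and Rab31 and summed normalized counts of the cerebellar and striatal markers, in the day 28 libraries and the day 3 libraries. Points are libraries with their replicate numbers and bars are mean ± SD (n = 3); Vps37b runs from 509 to 531 at day 28 and from 334 to 380 at day 3, and for Smpd3 and for the cerebellar markers day 3 replicate 3 lies with or near the day 28 libraries.

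ESCRT-II bridges ESCRT-I to the first ESCRT-III subunit. Its 2 tested genes had differences of -0.12 and -0.04. Snf8, the subunit also called VPS22, had 453, 541 and 525 in the day 28 libraries, against 469.9, 642 and 553 in the day 3 libraries (limma log2 difference -0.12, SE 0.14, 95% interval -0.45 to 0.20, adjusted p = 0.754). The days overlapped widely, and the highest value was in day 3 replicate 2. Of the 50-base words of Snf8, 9.99% also occur in other genes, most often in the pseudogene Gm8712. Vps36 had 425, 361 and 462 in the day 28 libraries, against 386, 531 and 375 in the day 3 libraries (limma log2 difference -0.04, SE 0.17, 95% interval -0.42 to 0.34, adjusted p = 0.950), again with its highest value in day 3 replicate 2.

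Vps25, the third ESCRT-II gene, did not pass the filter, with 6, 1 and 3 reads in the day 28 libraries and 4, 3 and 1 in the day 3 libraries. Its product sits in the same complex as those of Snf8 and Vps36. In GENCODE M21, 67.2% of the exon bases of Vps25 are shared with Ramp2, a gene on the same strand that encodes a receptor-modifying protein. Ramp2 had 65, 94 and 83 reads in the day 28 libraries and 208, 160 and 106 in the day 3 libraries. Reads in shared exons may be dropped or given to either gene, depending on the counting tool, which is not given in the sources used here. The values of Vps25 are therefore uncertain, and the part of the shared exons in its low count was not tested.

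ESCRT-III subunits polymerise into the filaments that narrow and cut the bud neck. CHMP6 starts the filament, CHMP4 proteins form most of it, CHMP3 and the CHMP2 proteins follow, and CHMP1, CHMP5 and IST1 act late and bind VPS4 or its cofactor. None of the 10 tested genes passed, with 4 positive and 6 negative differences and a median of -0.06. Chmp5 had 677, 621 and 627 in the day 28 libraries, against 737, 778 and 711 in the day 3 libraries. Every day 28 library lay under every day 3 library, with the nearest values 677 and 711 (limma log2 difference -0.21, SE 0.10, 95% interval -0.43 to 0.01, adjusted p = 0.401). Chmp1b had 431, 407 and 405 in the day 28 libraries, against 353, 341 and 434 in the day 3 libraries, and day 3 replicate 3 stood at the level of the day 28 libraries (limma log2 difference 0.15, SE 0.13, 95% interval -0.15 to 0.45, adjusted p = 0.673). Without the 2 libraries rich in cerebellar transcripts the difference of Chmp1b was -0.07, so that its sign rested on those libraries.

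Chmp4b had the highest level per kb of the ESCRT-III genes. Chmp4b had 2434, 2335 and 2205 in the day 28 libraries, against 2464, 2682 and 2337 in the day 3 libraries, with overlap between the days (limma log2 difference -0.10, SE 0.09, 95% interval -0.30 to 0.10, adjusted p = 0.669). Ist1 had 1205, 1006 and 1070.1 in the day 28 libraries, against 1187, 884 and 1026 in the day 3 libraries (limma log2 difference 0.09, SE 0.13, 95% interval -0.20 to 0.38, adjusted p = 0.809). The day 3 values of Ist1 enclosed all but 1 of its day 28 values. Chmp2a (log2 difference -0.12, 95% interval -0.42 to 0.17), Chmp3 (log2 difference -0.06, 95% interval -0.27 to 0.15), Chmp7 (log2 difference -0.08, 95% interval -0.32 to 0.15) and Chmp1a (log2 difference -0.05, 95% interval -0.41 to 0.30) had small negative differences. Chmp2b (log2 difference 0.07, 95% interval -0.28 to 0.42) and Chmp6 (log2 difference 0.05, 95% interval -0.31 to 0.41) had small positive ones. Each of the 10 intervals lay within a 1.5-fold change. Chmp4c, the other CHMP4 gene measured and known for its part in the abscission checkpoint, was under the filter, with 4, 0 and 0 reads in the day 28 libraries and 1, 4 and 6 in the day 3 libraries.

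Paralogs within ESCRT-III stood at different levels per kb of exon. The normalized count per kb of Chmp4b averaged 1147 ± 56.7 at day 28 and 1230.4 ± 86.0 at day 3 (SD, n = 3 each). Chmp2a exceeded Chmp2b 2.37-fold and Chmp1a exceeded Chmp1b 1.89-fold, each in all 6 libraries (exact sign-flip test, p = 0.0312 for each, the smallest possible, adjusted p = 0.0430). With the longest coding transcript as the length these ratios were 2.82 for Chmp2a to Chmp2b and 2.89 for Chmp1a to Chmp1b. They are ratios of levels, not differences between the days. The ratio of Chmp2a to Chmp2b was 2.23 ± 0.0814 at day 28 and 2.61 ± 0.661 at day 3.

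Chmp5 and Rab31, described further below, were the 2 of 42 members that lay lower in every day 28 library. Of all tested genes 9.21% did so, and neither member passed in limma. Their promoters are printed as a description, from RefSeq on GRCm38.p6, with 250 bases before the start and 50 after it. No link between these sequences and the values was tested. Capitals mark matches to 6 short motifs on either strand, which were the GC box GGGCGG, the ETS core CCGGAAG, the E-box CACGTG, the cAMP response element TGACGTCA, the CCAAT box and the TATA box TATAAA. None of these motifs contains another. The Chmp5 promoter lies on the plus strand at chr4:40948303-40948602 and the Rab31 promoter on the minus strand at chr17:65772703-65773002.
Chmp5: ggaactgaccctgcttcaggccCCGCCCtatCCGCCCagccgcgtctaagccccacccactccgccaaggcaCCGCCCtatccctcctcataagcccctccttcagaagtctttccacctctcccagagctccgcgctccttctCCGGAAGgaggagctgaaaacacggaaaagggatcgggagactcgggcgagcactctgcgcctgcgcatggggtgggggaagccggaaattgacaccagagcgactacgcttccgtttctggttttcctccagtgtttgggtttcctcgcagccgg
Rab31: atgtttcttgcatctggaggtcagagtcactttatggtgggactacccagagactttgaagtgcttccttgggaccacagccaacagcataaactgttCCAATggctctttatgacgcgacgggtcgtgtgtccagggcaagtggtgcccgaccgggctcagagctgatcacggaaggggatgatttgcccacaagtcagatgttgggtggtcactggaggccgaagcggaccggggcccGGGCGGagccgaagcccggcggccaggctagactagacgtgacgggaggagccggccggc
The Chmp5 window held 3 GC boxes and 1 ETS core, and the Rab31 window held 1 GC box and 1 CCAAT box. A GC box was in 60.6% of the 33 promoters of 29 tested members, against 35.7% of all 32851 promoters and 59.5% of those of tested genes. The ETS core was in 27.3% of member promoters, against 8.86% of all promoters and 15.1% of those of tested genes. The CCAAT box was in 27.3%, against 37.4% and 37.3%, and the TATA box in 6.06%, against 13.6% and 7.67%. The E-box was in 12.1%, against 7.15% and 9.42%, and the cAMP response element in 3.03%, against 1.79% and 2.82%. Median GC content was 61.7% in member promoters, against 60.3% in those of tested genes. A match of letters is a description and shows no binding.

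VPS4 is the AAA ATPase that strips ESCRT-III from the membrane, and VTA1, also called LIP5, is its activating cofactor. None of the 3 genes passed, with a median difference of -0.06. Vps4a had 1170.0, 1211 and 1072 in the day 28 libraries, against 1102, 1336 and 1177 in the day 3 libraries (limma log2 difference -0.06, SE 0.10, 95% interval -0.30 to 0.17, adjusted p = 0.837). Vta1 had 372, 371 and 341 in the day 28 libraries, against 359, 407 and 368 in the day 3 libraries (limma log2 difference -0.06, SE 0.12, 95% interval -0.33 to 0.21, adjusted p = 0.862). The highest value of each was in day 3 replicate 2, and the days overlapped. Vps4b averaged 714 ± 37.1 at day 28 and 723 ± 88.3 at day 3 (log2 difference -0.01, 95% interval -0.28 to 0.26).

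Vps4a was the dominant VPS4 gene of the tissue. Its level per kb was 456 ± 28.3 at day 28 and 478 ± 47.3 at day 3, against Vps4b at 80.2 ± 4.16 at day 28 and 81.2 ± 9.91 at day 3 (SD, n = 3 each). The ratio of Vps4a to Vps4b was 5.69 ± 0.101 at day 28 and 6.0 ± 1.40 at day 3, and Vps4a was higher in all 6 libraries (5.79-fold in the means, exact sign-flip test, p = 0.0312, the smallest possible, adjusted p = 0.0430). With the longest coding transcript as the length, the ratio of means was 3.49. The most similar 90-base windows of the 2 coding sequences are shown, because reads of one copy can be told from the other only by the bases that differ. They come from the M21 transcripts, from base 982 of the Vps4a coding sequence on chromosome 8 of mouse and base 1003 of that of Vps4b on chromosome 1, and capitals mark the 14 bases that differ.
Vps4a: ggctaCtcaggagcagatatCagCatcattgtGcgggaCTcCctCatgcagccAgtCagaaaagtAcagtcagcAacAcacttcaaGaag
Vps4b: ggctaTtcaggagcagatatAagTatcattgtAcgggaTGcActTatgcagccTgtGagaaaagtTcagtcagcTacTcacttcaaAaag
The longest run of bases shared anywhere by the 2 coding sequences was 14, so a longer read within the coding sequence belongs to 1 gene of the pair.

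ALIX, encoded by Pdcd6ip, binds ESCRT-III directly, and syntenin, encoded by Sdcbp, ties ALIX to syndecans and to tetraspanins such as CD63. Neither gene passed. Pdcd6ip had 1348, 1277 and 1388 in the day 28 libraries, against 1346, 1339.7 and 1379 in the day 3 libraries (limma log2 difference -0.02, SE 0.08, 95% interval -0.21 to 0.17, adjusted p = 0.949). The values lay within a narrow range at both times. Sdcbp had 1348, 1433 and 1334 in the day 28 libraries, against 1408, 1546 and 1596 in the day 3 libraries (limma log2 difference -0.14, SE 0.09, 95% interval -0.35 to 0.06, adjusted p = 0.529). Day 28 replicate 2 lay between the day 3 values, and the other 2 day 28 libraries lay under all of them. Both intervals fell within a 1.5-fold change.

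The ceramide genes encode neutral sphingomyelinases, which cut sphingomyelin to ceramide at the membrane. Smpd3 encodes nSMase2, an enzyme of neurons and other cells whose loss or inhibition lowers vesicle release in cell culture. Smpd3 had 1851, 1684 and 1799.9 in the day 28 libraries, against 1128, 1169 and 1687 in the day 3 libraries. Day 28 was higher than day 3 replicates 1 and 2, but day 3 replicate 3 lay beside day 28 replicate 2, so the days overlapped narrowly. The difference was 0.44 (SE 0.15, 95% interval 0.10 to 0.79), and in limma its p was 0.0164 and its adjusted p 0.246. Smpd2, which encodes nSMase1, had 116, 133 and 154 in the day 28 libraries, against 147, 173 and 186 in the day 3 libraries (limma log2 difference -0.33, SE 0.19, 95% interval -0.76 to 0.10, adjusted p = 0.492). Its sign was opposite to that of Smpd3, and day 28 replicate 3 lay above day 3 replicate 1.

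The 2 low Smpd3 libraries, day 3 replicates 1 and 2, were those with the high cerebellar marker sums given above. Of the 15 cerebellar markers 0 had a positive difference and none was at 0 in all libraries, with sums of 5764 to 9769 at day 28 and 6241 to 34688 at day 3. Of the 10 striatal markers all 10 had a positive difference and none was at 0, with sums of 27397 to 33848 at day 28 and 15536 to 22302 at day 3. Without day 3 replicates 1 and 2 the difference of Smpd3 was 0.08. With the mean log2 level of the cerebellar markers as a covariate it was 0.21, and without day 3 replicate 3 it was 0.63. Over all settings its adjusted p ran from 0.0145 to 0.788. Which cells or regions carried the Smpd3 difference was not tested.

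Of the 2 ceramide genes among the members, Smpd3 was the higher. Its level per kb was 339.9 ± 16.3 at day 28 and 254 ± 59.5 at day 3. Smpd2 stood at 30.1 ± 4.34 at day 28 and 37.8 ± 4.40 at day 3 (SD, n = 3 each). The ratio of Smpd3 to Smpd2 was 11.5 ± 1.94 at day 28 and 6.68 ± 0.987 at day 3. The ratios ran from 9.95 to 13.6 at day 28 and from 5.78 to 7.74 at day 3, without overlap. Each gene taken alone overlapped between the days, and their differences had opposite signs. The ratio is built from those same values, so it is given only as a description and adds no separate result. In an exact permutation test its p was 0.1, the smallest that test allows. How many other gene pairs have ratios that lie apart was not computed. With the longest coding transcript as the length, the ratio over all libraries was 3.19 in place of 8.75, so its size depends on the transcript assumed. Of the exon bases of Smpd2, 20.3% lie opposite exons of Mical1, which averaged 145 ± 13.8 normalized counts at day 28 and 116 ± 20.1 at day 3.

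The Rab group holds GTPases that decide where an endosome goes, with SYTL4, an effector of RAB27A. None of the 7 genes passed, with 1 positive and 6 negative differences and a median of -0.13. Rab31, which with flotillins drives budding into the endosome and keeps RAB7 off it in human cells, had 1166, 1174 and 1172 in the day 28 libraries, against 1212, 1341 and 1683 in the day 3 libraries. Every day 28 library lay under every day 3 library. The day 28 values were nearly equal, and day 3 replicate 3 stood well above the other libraries (limma log2 difference -0.26, SE 0.12, 95% interval -0.54 to 0.03, adjusted p = 0.416). Without that library the difference was -0.12, and without the 2 libraries rich in cerebellar transcripts it was -0.52.

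The sum over 15 myelin and oligodendrocyte markers was 82208, 101097 and 102121 in the day 28 libraries, against 122254, 157245 and 137350.0 in the day 3 libraries. Of these 14 had a negative difference, and 10 were lower at day 28 without overlap, against 9.21% of all tested genes. None was at 0 in all libraries. Negative differences were also found for 15 of 15 cerebellar and 13 of 13 midbrain and hindbrain markers. They were found for 9 of 10 astrocyte and 9 of 9 interferon response markers. The same held for 7 of 10 microglia, 7 of 10 general neuron and 6 of 8 liver markers. Among endothelial markers 4 of 10 were negative, and among striatal markers 0 of 10. The myelin marker sum and Rab31 were both higher in every day 3 library than in any day 28 library. The sum was highest in day 3 replicate 2, and Rab31 in day 3 replicate 3. What part any of these lists has in the Rab31 values was not tested.

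RAB27A and RAB27B dock filled endosomes at the plasma membrane. Rab27a had 103, 122 and 94.8 in the day 28 libraries, against 187, 113 and 92.5 in the day 3 libraries (limma log2 difference -0.24, SE 0.28, 95% interval -0.87 to 0.39, adjusted p = 0.759). Its highest value, in day 3 replicate 1, stood far above the rest, and without that library, which also held the high interferon response sum given above, the difference was 0.05. Rab27b averaged 445 ± 10.4 at day 28 and 458 ± 71.4 at day 3 (log2 difference -0.03, 95% interval -0.34 to 0.28). Sytl4 had 16.0, 25 and 1.90 in the day 28 libraries, against 25.6, 7.20 and 20.7 in the day 3 libraries, from 98 reads in all (limma log2 difference -0.63, SE 0.91, 95% interval -2.70 to 1.44, adjusted p = 0.810). With an interval that wide, a difference of several-fold in either direction could not have been detected for Sytl4 at this depth.

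RAB11A and RAB35 act on recycling endosomes, and RAB7 takes late endosomes to the lysosome. Rab11a had 926, 1067 and 1082 in the day 28 libraries, against 1077, 1068 and 1209.7 in the day 3 libraries, and the days overlapped (limma log2 difference -0.13, SE 0.10, 95% interval -0.36 to 0.11, adjusted p = 0.641). Rab35 averaged 1136 ± 103 at day 28 and 1119.6 ± 109 at day 3 (log2 difference 0.02, 95% interval -0.23 to 0.27). Rab7 averaged 4479.8 ± 214 at day 28 and 4677 ± 325 at day 3 (log2 difference -0.06, 95% interval -0.26 to 0.14). Of the 50-base words of Rab7, 11.2% also occur in other genes, most often in the pseudogene Rab7-ps1. Per kb, Rab7 was the highest of all members and Rab27a and Rab27b were among the lowest. Rab27b stood above Rab27a in 5 of 6 libraries (1.38-fold in the means, exact sign-flip test, p = 0.0625, adjusted p = 0.0688).

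Flotillins are scaffold proteins of membrane rafts that are found on vesicles. Flot1 had 1045, 1089 and 1148 in the day 28 libraries, against 988, 1079.6 and 1095 in the day 3 libraries (limma log2 difference 0.05, SE 0.09, 95% interval -0.16 to 0.26, adjusted p = 0.844). Flot2 had 1285, 1468 and 1353 in the day 28 libraries, against 1266, 1433 and 1460.4 in the day 3 libraries (limma log2 difference -0.02, SE 0.10, 95% interval -0.24 to 0.21, adjusted p = 0.961). The days overlapped for both, and the lowest value of each was in day 3 replicate 1. Per kb of all exons Flot2 exceeded Flot1 1.35-fold in the means and in all 6 libraries (exact sign-flip test, p = 0.0312, the smallest possible, adjusted p = 0.0430), but with the longest coding transcript as the length the ratio was 0.867, so their order depends on the transcript assumed.

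The last group holds ARF6, a GTPase in the syntenin route, the RAL GTPases, which act in fusion with the plasma membrane, and cortactin, an actin regulator at the cell cortex. All 4 differences were negative as deposited and none passed, with a median of -0.03, which was above 0 with upper-quartile scaling. Ralb had 296, 247 and 243 in the day 28 libraries, against 294, 281 and 303 in the day 3 libraries (limma log2 difference -0.16, SE 0.14, 95% interval -0.48 to 0.15, adjusted p = 0.655). Day 28 replicate 1 lay within the day 3 range and the other 2 day 28 libraries lay under it. Arf6 had 516, 572 and 461 in the day 28 libraries, against 559, 553 and 487 in the day 3 libraries (limma log2 difference -0.05, SE 0.12, 95% interval -0.33 to 0.23, adjusted p = 0.901), with overlap in both directions. Rala averaged 1149 ± 79.0 at day 28 and 1148 ± 31.0 at day 3 (log2 difference -0.00046, 95% interval -0.21 to 0.21). Cttn, which encodes cortactin, had 1507, 1477 and 1528 in the day 28 libraries, against 1586, 1555 and 1397 in the day 3 libraries (log2 difference -0.01, 95% interval -0.21 to 0.19). Both intervals were among the narrowest of the members.

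Rala was the dominant RAL gene. The ratio of Rala to Ralb per kb was 7.54 ± 1.22 at day 28 and 6.68 ± 0.402 at day 3 (SD, n = 3 each), and Rala was higher in all 6 libraries (7.04-fold in the means, exact sign-flip test, p = 0.0312, the smallest possible, adjusted p = 0.0430). With the longest coding transcript as the length the ratio was 3.53. The most similar 90-base windows of the coding sequences, both from base 41, are printed for the same reason as those of the VPS4 genes, and capitals mark the 13 bases that differ. Rala lies on chromosome 13 and Ralb on chromosome 1.
Rala: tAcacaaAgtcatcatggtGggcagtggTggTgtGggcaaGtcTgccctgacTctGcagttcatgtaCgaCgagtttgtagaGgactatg
Ralb: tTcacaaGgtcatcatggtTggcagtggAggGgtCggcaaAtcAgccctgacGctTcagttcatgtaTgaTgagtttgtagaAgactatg
The longest run of identical bases in the 2 coding sequences was 17 bases.

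Across the members, levels per kb of exon spanned a wide range. In normalized counts per kb, Rab7 averaged 1716 ± 82.0 at day 28 and 1792 ± 125 at day 3, Chmp4b came next, and Chmp2a averaged 699.6 ± 71.0 at day 28 and 765 ± 108 at day 3. The lowest of the tested members was Sytl4, at 2.79 ± 2.27 at day 28 and 3.48 ± 1.86 at day 3, and the median over the 42 was 209. In the order of levels, Rab7, Chmp4b, Chmp2a, Chmp1a and Rab27a were the 5 members whose 6 libraries all lay above those of the next gene in the order. Elsewhere in the order the ranges of neighbours over the 6 libraries overlapped.

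**Figure D4:**
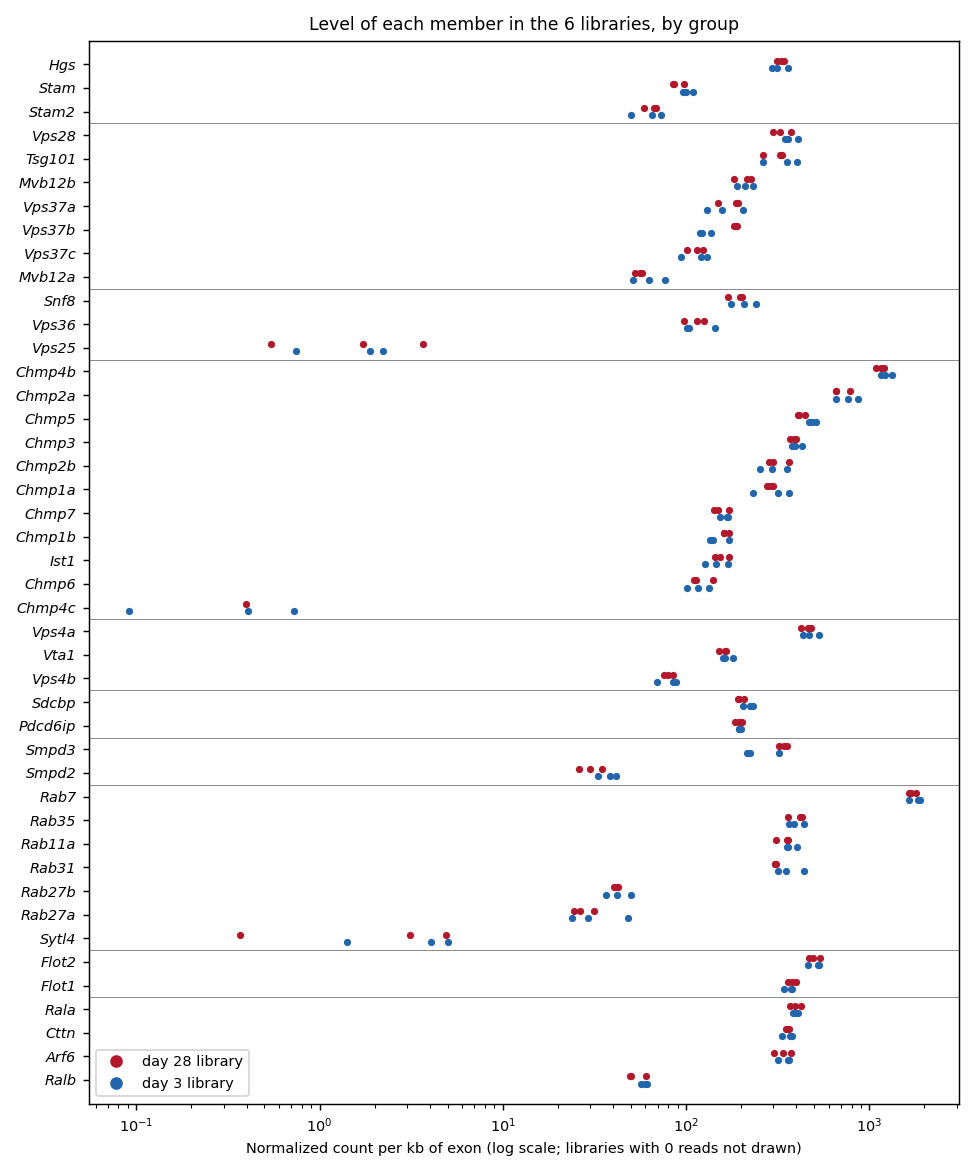
Normalized count per kb of exon (log scale, horizontal axis) of the 44 listed members in each of the 6 libraries, with the day 28 libraries drawn above the day 3 libraries, ordered by mean within each group; libraries with 0 reads are not drawn. The days overlap for all 42 tested members except Vps37b, Chmp5 and Rab31, Rab7 and Chmp4b are highest, and Vps25, Chmp4c and Sytl4 are lowest.

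Deviations also varied between libraries of the same day. Median deviations of the 42 members from their own 6-library means were -0.04, 0.04 and -0.02 in the day 28 libraries and -0.04, 0.06 and 0.06 in the day 3 libraries. The ESCRT-II genes had their highest median deviation, 0.31, in day 3 replicate 2, and the ESCRT-0 genes theirs, 0.20, in day 3 replicate 3. In day 3 replicate 2 the deviations of the 42 members ran against exon length (Pearson r = -0.421 and Spearman rho = -0.487, across genes of 1 library, as a description). In the other 5 libraries r ran from -0.06 to 0.25. Across the 15978 tested genes with a length, r in day 3 replicate 2 was -0.144. Short members such as Snf8 and Chmp2a were high in that library, and long ones such as Stam2 and Vps37a were low. What this library trait does to single members was not tested.

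**Figure D5:**
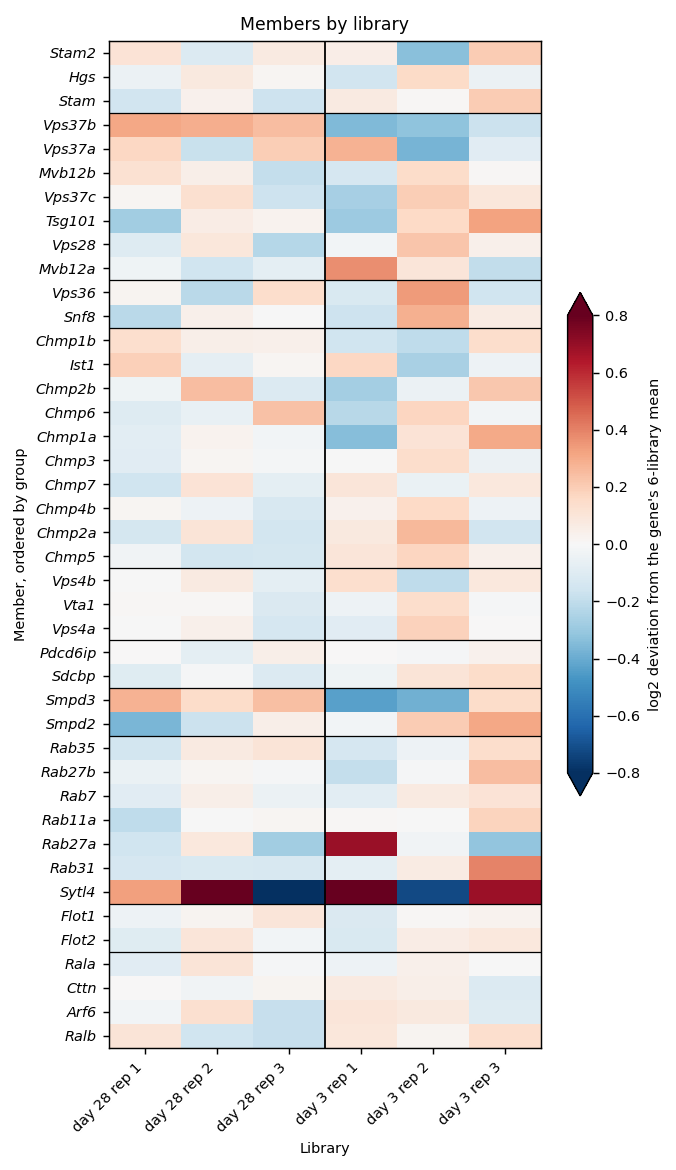
Deviation of each tested member from its own mean over the 6 libraries (log2, colour, with values past 0.8 either way shown at the end colours), with members in rows by group and the day 28 libraries left of the day 3 libraries. Vps37b is above its mean in the 3 day 28 libraries and below it in the 3 day 3 libraries, and 3 of the 42 rows, with Chmp5 and Rab31, have days that do not overlap.

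Other genes of these pathways were taken from 3 further lists. None passed in limma or voom at an adjusted p under 0.05. Of 22 tested other ESCRT subunits and regulators, 1 had an unadjusted p under 0.05, against 13.4% of all tested genes, and 9 differences were positive and 13 negative, with a median of -0.04. The smallest p was that of Tollip, a ubiquitin-binding endosomal adaptor, with 1705, 1824 and 1654 in the day 28 libraries, against 1853, 2228 and 2069 in the day 3 libraries (limma log2 difference -0.24, SE 0.10, 95% interval -0.46 to -0.02, adjusted p = 0.321). All 3 day 28 libraries lay under all 3 day 3 libraries for Tollip. The next was Usp8, a deubiquitinase that binds STAM, with a difference of -0.16 (95% interval -0.39 to 0.08).

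Of 21 tested sphingolipid enzymes other than Smpd2 and Smpd3, 3 had an unadjusted p under 0.05. All 3 were lower at day 28, against 6.39% of all tested genes. In this list 4 differences were positive and 17 negative. The median was -0.14. Acer2, an alkaline ceramidase of the Golgi, had 146, 126 and 143 in the day 28 libraries, against 464, 212 and 212 in the day 3 libraries (limma log2 difference -0.99, SE 0.29, 95% interval -1.66 to -0.32, adjusted p = 0.200). Degs1, the desaturase that completes ceramide synthesis, had 973, 963 and 954 in the day 28 libraries, against 1087, 1274 and 1235 in the day 3 libraries (limma log2 difference -0.31, SE 0.10, 95% interval -0.53 to -0.09, adjusted p = 0.211). The days did not overlap for either gene, and Acer2 stood far higher in day 3 replicate 1, the library with the high interferon response sum, than in any other. In this list 7 of 21 genes had days that did not overlap, 6 of them lower at day 28, against 18.9% and 9.21% of all tested genes.

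Of 57 tested Rab regulators, effectors and fusion factors, 6 had an unadjusted p under 0.05, 3 higher and 3 lower, against 6.98% and 6.39% of all tested genes, and the median difference was close to 0. Sdc4, a syndecan whose tail binds syntenin, had 774, 738 and 738 in the day 28 libraries, against 1133, 1938 and 1262 in the day 3 libraries (limma log2 difference -0.90, SE 0.18, 95% interval -1.32 to -0.49, adjusted p = 0.0939). Day 28 lay under day 3 throughout, and the highest value was in day 3 replicate 2, the library rich in liver transcripts. Sdc4 passed without day 3 replicate 3, with library weights and at an adjusted p under 0.10. Unc13d, a RAB27 effector of secretion from blood cells, had 2.00, 4.46 and 9.48 in the day 28 libraries, against 43.0, 32.9 and 20.7 in the day 3 libraries (limma log2 difference -2.52, SE 0.67, 95% interval -4.03 to -1.01, adjusted p = 0.161). Its counts were low and lay apart between the days.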

How the data were processed

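Brain RNA was measured by sequencing of polyadenylated RNA in stranded libraries, per the labels' protocols. The deposited table holds log2 values that the authors made from normalized counts after adding 1, as undoing both steps shows: the linear values are whole reads, for 100% of values within 0.001, divided by library factors of 0.822 to 1.12, which equal median-of-ratios factors. The genome build was GRCm39 per the submitters' processing notes. The aligner, counter, annotation and scaling tool are not given in the sources used here. No column of another sample was in the table.

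The fit used limma 3.58.1 (R 4.3.3), with an intensity trend and group as the only term, on log2(normalized count + 1) of the 16162 genes whose normalized count averaged 10 or more, with 4 residual degrees of freedom. The log2 scale with 1 added understates differences of low genes. Two-sided p-values were adjusted over all tested genes by the Benjamini-Hochberg method, at 0.05. The tested genes held 99.8% of the reads of each library. The procedure was also run on simulated data, and no error rate or power of the fit is claimed from that run. Same-day libraries differed by more than counting noise, with a chi-square of at least 9.13 times its degrees of freedom, so none was taken as a repeat deposit of another.

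Exon lengths, overlaps and shared 50-base words came from GENCODE M21, on an older build than the table, and were used by gene ID. Promoters came from RefSeq on GRCm38.p6. Levels between genes are compared per kb of all exons, with an exact sign-flip test over the 6 libraries for 11 pairs. Effects of length or mapping that are the same in all 6 libraries remain in that test. The VPS37 shares and the Smpd3 to Smpd2 ratio were compared between the days by an exact permutation test. Reads are not independent molecules, and spread between libraries, not counting error, sets the intervals.

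The members and the lists were chosen with earlier results of these data known. Full values are given for members past the threshold, the 2 of smallest p in each group, the 5 largest and 5 smallest differences and members whose days did not overlap, and for the 2 genes of smallest p in each further list; other members are summarised. Alternatives covered the pseudocount, filter, scaling, variance model, library weights, a replicate block, the threshold and each library left out. Added after seeing the data were voom on the recovered reads, a cerebellar marker covariate, removal of the 2 libraries rich in cerebellar transcripts, and another transcript length. In that removal the lone day 3 library was assumed to vary like the others. Figures were drawn with matplotlib 3.10.9.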

Additional observations from a re-analysis of the deposited data

How the results depend on the processing

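Counts moved with the settings as follows. With an adjusted p threshold of 0.10, 1 member, 1 gene of the further lists and 152 of all tested genes passed. Without an intensity trend 1 member had an unadjusted p under 0.05 and 3 of all tested genes passed. Without the 2 libraries rich in cerebellar transcripts these counts were 4 members, against 11.8% of all tested genes at that p, and 0 genes, and 22 members had days that did not overlap, against 60.2% of all tested genes, with 1 day 3 library left. Total-read scaling gave 5 members whose days did not overlap, against 19.3% of all tested genes. The number of all tested genes that passed was 68 without a filter, 74 with a robust prior, 69 with library weights (1 of them in the further lists), 2 with the cerebellar covariate and 0 with voom. With the replicate block 0 of all tested genes and 0 members passed, and 2 members had an unadjusted p under 0.05; the block changed no call of a member. The days share replicate numbers, but deviations of same-numbered libraries correlated at 0.034, 0.131 and -0.062, and 3 of 6 libraries correlated best with their own number, so the numbers were not taken as pairs. Leaving out 1 library at a time gave 0 to 2 members and 0 to 1 genes of the further lists that passed, 1 to 5 members at an unadjusted p under 0.05 (8.17% to 18.4% of all tested genes), 5 to 9 whose days did not overlap (25.3% to 36.9%), and 1 to 623 of all tested genes that passed.

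Signs turned in many members under at least 1 alternative. With the cerebellar covariate Stam2 was at -0.079, Vps36 at 0.12, Chmp1b at -0.0028 and Rab27a at 0.000060. Without the 2 libraries rich in cerebellar transcripts Stam2 was at -0.18, Vps36 at 0.14, Chmp1b at -0.069, Rab27a at 0.20, Flot1 at -0.0026 and Arf6 at 0.079. With upper-quartile scaling Pdcd6ip was at 0.0089 and Flot2 at 0.011. With single libraries left out the log2 difference of Stam2 ran from -0.10 to 0.17, of Vps37a from -0.035 to 0.29, of Vps36 from -0.13 to 0.12, of Ist1 from -0.017 to 0.20, of Vps4a from -0.13 to 0.013, of Pdcd6ip from -0.047 to 0.013, of Rab27a from -0.45 to 0.052, of Sytl4 from -1.26 to 0.32, of Flot2 from -0.082 to 0.027 and of Arf6 from -0.13 to 0.031. The cause of these turns was not tested. Of 340 values for the other 17 members, 46 had the other sign, between -0.18 and 0.11, and 0 crossed the threshold. These 46 values came from 15 of the 17 members. Without a filter, Vps25 and Chmp4c could be fitted as well, and neither passed. The remaining members with full values kept their sign and their side of the threshold under every alternative, apart from Vps37b and Smpd3, whose values are given with their genes. Of the tested members, Sytl4, with 98 reads in all, had the 1 interval that reached past 2-fold, and Vps25 and Chmp4c were under the filter.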
